A study of Mus musculus with 278 samples.

Results

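The mitotic genes examined here are a list of 40 genes whose products drive entry into mitosis, build the spindle and kinetochores, separate the chromosomes and divide the cell. Of these, 38 had a row among the 14145 genes of the deposited expression matrix, and the remaining pair, Bub1 and Tpx2, was not analysed here. All 38 passed the filter on low values (over 1 TPM in more than 5 cells), Ckap5 and Ect2 only through the library series in which they were high. The rule names the genes and uses no measured value, although the list was drawn up with earlier results of these data known. The transcripts were followed in single mouse cells labelled as keratinocytes, the main cell type of the epidermis. The cells were taken from co-cultures after 24 h of drug or control treatment. The study asked how wild-type (WT) keratinocytes respond to neighbours in which beta-catenin, the effector of Wnt signalling, is activated.

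WT cells were mixed 9:1 with K14ΔNβ-cateninER keratinocytes, which carry an N-terminally truncated beta-catenin fused to an oestrogen receptor and driven by the keratin 14 promoter. The fusion protein is switched on by 4-hydroxytamoxifen (4OHT). Treated cultures received 200 nM 4OHT for 24 h and untreated cultures received DMSO. All keratinocytes came from adult mouse dorsal skin, and no age, sex or strain was given in the sources used here. The K14 promoter restricts the transgene to basal keratinocytes, and the labels do not say which captured cells carried it, so WT and transgenic cells were not told apart here. The study found transgenic cells by aligning reads to the transgene and left them out of its analysis. The sets used here may therefore hold cells that the study removed.

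The labels placed 270 cells in 4 library sets, named by series and treatment. The AG series held 66 untreated and 64 treated cells, and the GHA501A series held 71 untreated and 69 treated cells. Another 8 AG cells had a name and a treatment label that disagreed, and they were left out of all comparisons. Each series held 1 set per treatment, so the set and not the cell was the replicate, and the design had 2 sets per treatment. Nothing in the labels says whether the series came from separate cultures or animals, so the spread between them may be technical.

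Before any result, the cell identity of the sets was compared with marker genes. In AG, all cells but 1 treated cell had higher keratinocyte than fibroblast markers. In GHA501A, this held for 8 of 71 untreated and 12 of 69 treated cells, although the labels call all cells keratinocytes. Col1a1, the main collagen chain of fibroblasts, had a mean of 15 and 15.9 TPM (transcript counts scaled by length and to the same total in every cell) in the untreated and treated AG sets. In the GHA501A sets its mean was 1507 and 1936 TPM. Krt14, the basal keratin, had a mean of 5314 and 6039 TPM in AG and of 226 and 846 TPM in GHA501A. Of the 11 keratinocyte markers tested, 9 fell and none rose in GHA501A against AG in the limma fit described below. Of the 8 fibroblast markers tested, 6 rose, among them Dcn and Postn, which passed the filter on low values through GHA501A alone. Cell type and series therefore cannot be told apart over all cells.

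The series also differed in which genes were seen at all. In total, 1.24% of the 14145 genes were over 1 TPM in under 5% of the cells of both AG sets and in over 80% of the cells of both GHA501A sets. They included genes that most cells express, such as Rps24 (a ribosomal protein), Btf3 (a translation-associated factor) and Ctnnb1 (beta-catenin itself). Rps24 had a mean of 0.519 and 0.466 TPM in the AG sets and of 754 and 711 TPM in the GHA501A sets. The opposite pattern was seen for 0.212% of the genes. This matters for the mitotic list because 4 of its members, Ckap5, Nusap1, Ect2 and Racgap1, never exceeded 5 TPM in any AG cell.

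Mitotic genes are transcribed late in the cell cycle and are silent in resting cells. In resting cells the DREAM complex, a repressor assembled on the MuvB core, holds many of their promoters shut. In dividing cells MuvB instead binds B-Myb and FoxM1, which activate the same promoters. Much of this control passes through the cell cycle homology region (CHR), a short element bound by MuvB, and through CCAAT boxes bound by NF-Y. The proteins are then destroyed as mitosis ends, many of them by the anaphase-promoting complex.

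These 2 elements were looked for in the promoters of the members. RefSeq promoters of 300 bases, from 250 before to 50 after the first listed start of a gene on GRCm38.p6, matched 33 of the 38 members. Aurkb, Ccna2, Cdc25c, Foxm1 and Smc4 were not matched. CCAAT on either strand (CCAAT or ATTGG) was present in 25 of 33 member promoters, or 75.8%, against 37.9% of 27025 mouse promoters of the same length. The CHR letters on either strand (TTTGAA or TTCAAA) were present in 26, or 78.8%, against 18.1% of all promoters. The variant TTCGAA was present in 3 members. Both CCAAT and either CHR form were found in 23 members, or 69.7%, against 7.70% of all promoters. The CCAAT and CHR letters can share a single base at most. These are matches of letters, not measured binding.

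The 170 bases just before the start are printed for 7 members, 5′ to 3′ on the strand of the gene, with CCAAT and CHR matches on either strand in capitals. All 7 were chosen because they carry both elements in this window, so they do not stand for the whole list. Members that followed the others most closely from cell to cell differed in the 300 bases. Cenpe and Ccnb1 had no CHR match and Ndc80 no CCAAT match, while Mki67 and Cenpf had both. Bub3 and Ckap5 are 2 of the 4 members that followed the others least, all of which had both elements in the 300 bases.
Cdk1 (chr10:69352913-69353082, minus strand): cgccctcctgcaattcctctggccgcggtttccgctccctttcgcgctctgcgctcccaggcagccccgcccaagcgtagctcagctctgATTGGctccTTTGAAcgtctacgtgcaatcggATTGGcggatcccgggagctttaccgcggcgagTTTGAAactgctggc
Top2a (chr11:99024190-99024359, minus strand): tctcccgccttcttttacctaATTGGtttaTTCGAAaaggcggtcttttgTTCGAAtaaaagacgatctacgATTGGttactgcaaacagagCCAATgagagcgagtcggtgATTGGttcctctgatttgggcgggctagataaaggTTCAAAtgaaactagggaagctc
Cdc20 (chr4:118437344-118437513, minus strand): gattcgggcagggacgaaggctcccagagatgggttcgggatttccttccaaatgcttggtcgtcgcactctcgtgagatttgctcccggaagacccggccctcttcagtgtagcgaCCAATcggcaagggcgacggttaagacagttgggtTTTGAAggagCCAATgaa
Ube2c (chr2:164769759-164769928, plus strand): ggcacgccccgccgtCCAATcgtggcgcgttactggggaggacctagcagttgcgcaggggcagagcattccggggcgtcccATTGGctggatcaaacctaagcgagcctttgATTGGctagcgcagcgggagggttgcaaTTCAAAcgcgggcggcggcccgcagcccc
Kif11 (chr19:37376212-37376381, plus strand): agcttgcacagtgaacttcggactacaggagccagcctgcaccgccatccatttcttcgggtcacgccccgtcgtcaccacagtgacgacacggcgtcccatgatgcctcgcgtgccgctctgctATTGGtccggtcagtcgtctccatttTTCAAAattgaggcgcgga
Bub3 (chr7:131560200-131560369, plus strand): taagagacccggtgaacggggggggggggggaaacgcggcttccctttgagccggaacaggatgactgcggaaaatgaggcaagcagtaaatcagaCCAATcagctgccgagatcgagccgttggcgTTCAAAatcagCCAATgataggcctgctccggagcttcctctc
Ckap5 (chr2:91526592-91526761, plus strand): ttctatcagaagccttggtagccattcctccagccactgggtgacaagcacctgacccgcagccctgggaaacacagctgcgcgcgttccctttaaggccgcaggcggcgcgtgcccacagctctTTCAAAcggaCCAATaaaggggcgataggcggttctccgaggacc
Counting back from the start as base -1, the CHR match nearest to it began at -15 in Cdk1 and at -18 in Cdc20. Top2a held 4 CCAAT and 3 CHR-type matches in this window. In Bub3 the CHR match began at -43, between CCAAT matches at -74 and -32.

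Levels are described first by role, as the mean TPM over the cells of a set in the order AG untreated, AG treated, GHA501A untreated and GHA501A treated. TPM is scaled by transcript length, so levels of different genes are set side by side on it, with limits. Genes such as Rps24 were near 0 in AG, and discarding multiply mapped reads can lower some genes and not others. An order of genes by TPM is therefore an order of the deposited values. The heat map of all cells shows the general pattern: in AG a minority of cells expressed most of the list while many others held few of its members.

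**Figure D1:**
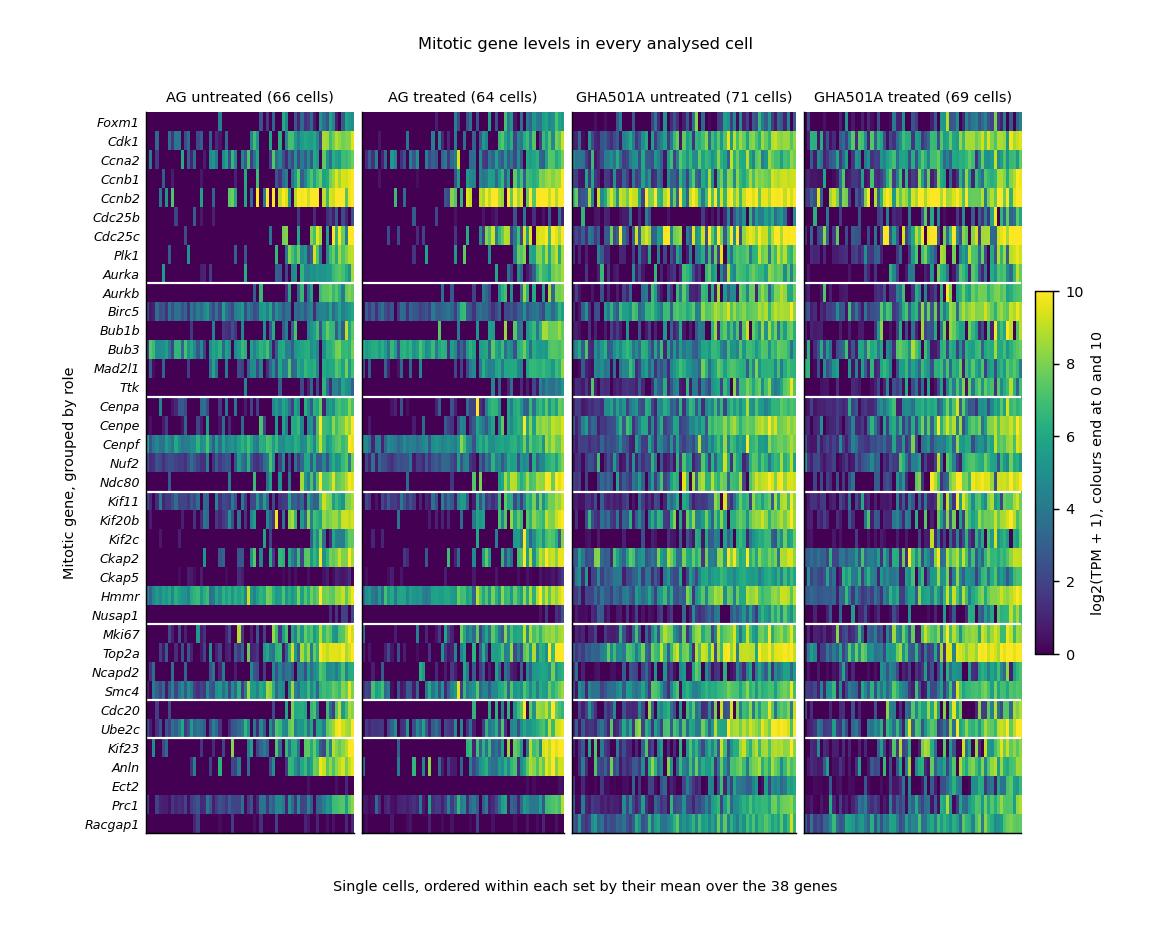
Heat map of log2(TPM + 1) for the 38 mitotic genes (rows, grouped by role) in 270 single cells (columns, ordered within each of the 4 library sets by their mean over the genes). High values gather at the right of each panel; Ckap5, Nusap1, Ect2 and Racgap1 stay dark in both AG sets, and Hmmr, Cenpf and Bub3 are lit in nearly every AG cell.

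Among the kinases and cyclins of mitotic entry, Ccnb2 (cyclin B2) was the most abundant, at 393, 495, 581 and 586 TPM. Cdc25c, the phosphatase that activates Cdk1, had means of 127.6, 212, 489 and 370 TPM. Ccnb1, the main mitotic cyclin, had means of 94, 72.1, 128.9 and 99.8 TPM. In all 3 the GHA501A means lay above the AG means of the same treatment, and so did the medians. The median of Ccnb1 was 0 and 0.351 TPM in the AG sets and 31.3 and 11 TPM in the GHA501A sets. Cdk1, the kinase that both cyclins activate, had means of 69.1, 36.9, 121.6 and 147.5 TPM. Plk1, a kinase that promotes entry and spindle assembly, had means of 60.7, 55, 80.3 and 91.8 TPM. Aurka, the centrosomal Aurora kinase, had means of 25.5, 28.1, 57.6 and 37.4 TPM. Foxm1, the transcription factor that drives much of the list, was among the lowest, at 6.49, 12.4, 10.9 and 16.1 TPM, and its median was under 1 TPM in every set. Cdc25b, another phosphatase of the same family, was barely detected in AG, at 0.541 and 0.820 TPM, and had means of 9.69 and 30.3 TPM in GHA501A. Genes such as Rps24 were also near 0 in AG, so these AG values do not show that Cdc25b was silent.

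The kinetochore genes were expressed at middle to high levels. Ndc80, the microtubule-binding subunit of the outer kinetochore, had means of 92.7, 159.5, 188.97 and 271.5 TPM. Cenpe, a kinetochore motor, had means of 109.045, 96.5, 131.7 and 148.6 TPM. Cenpf behaved otherwise: its means were 95.3, 73.2, 79.8 and 68.3 TPM, and 97% and 90.6% of AG cells exceeded 10 TPM, compared with 56.3% and 50.7% of GHA501A cells. Hmmr, a spindle protein, showed the same layout, with 98.5% and 98.4% of AG cells and 70.4% and 66.7% of GHA501A cells over 10 TPM. In AG these genes were thus detected in cells that held few other mitotic transcripts.

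Of the spindle checkpoint, Bub3 was present in most cells of every set, over 10 TPM in 80.3%, 87.5%, 83.1% and 68.1% of cells. Bub1b, which acts beside it in holding back anaphase, was over 10 TPM in 27.3%, 32.8%, 40.8% and 36.2%. Birc5 (survivin), a subunit of the chromosomal passenger complex, had means of 17.0 and 13.1 TPM in AG and of 173.9 and 142.9 TPM in GHA501A. Its highest AG value was 108.3 TPM, whereas Aurkb, the kinase of the same complex, reached 403 TPM in AG. The Birc5 transcript was over 1 TPM in 95.5%, 95.3%, 94.4% and 92.8% of cells, so the levels of the series lay apart while nearly all cells had the transcript. Ttk, another checkpoint kinase, had means of 5.02 and 3.01 TPM in AG and of 58.6 and 42.1 TPM in GHA501A.

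Top2a, the topoisomerase that untangles chromosomes, had means of 204, 112.3, 373 and 310 TPM. Mki67, which coats mitotic chromosomes and is the usual proliferation marker, had means of 82.4, 82.2, 143.2 and 172.8 TPM. It was over 10 TPM in 39.4%, 51.6%, 62% and 60.9% of cells. Ube2c, the conjugating enzyme of the anaphase-promoting complex, had means of 107.4, 63.3, 248.5 and 171.5 TPM, and Cdc20, which activates the complex, had means of 38, 88.2, 88 and 82.2 TPM. Of the cytokinesis genes, Kif23 and Anln were expressed in both series, while their partners Racgap1 and Ect2 reached at most 3.11 and 1.16 TPM in any AG cell. Racgap1, which joins Kif23 in the centralspindlin complex, was over 10 TPM in 0 of 66 and 0 of 64 AG cells and in 76.1% and 78.3% of GHA501A cells. Taking 3 cells as the limit, a count of 0 allows a detected share of up to 4.55% and 4.69% of the AG cells. This limits detection and not expression, since genes such as Rps24 were also near 0 in AG.

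A few cells carried most of the transcript. In the untreated and treated AG sets, the 7 cells with the highest values held a median over members of 68.3% and 68.5% of the summed TPM of a gene. In the GHA501A sets, the top 8 untreated and top 7 treated cells held 50.2% and 54.4%. Means of a set therefore rest on few cells for many of these genes, and shares or medians are given beside only some of them. For Cdc20, for example, the medians were 0 and 0 TPM in the AG sets and 12.8 and 2.57 TPM in the GHA501A sets.

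The share of cells that expressed the list together was then counted. A cell was scored as mitotic-gene positive when 19 or more of the 38 genes were over 1 TPM, the study's limit for an expressed gene. By this rule 42.4% of untreated AG cells (28 of 66; exact 95% binomial interval 30.3 to 55.2) and 43.8% of treated AG cells (28 of 64; 31.4 to 56.7) were positive. In GHA501A all 71 untreated cells (94.9 to 100) and 61 of 69 treated cells (88.4%; 78.4 to 94.9) were positive. These intervals cover counting error only, and the cells of a set share their preparation. The limit of 1 TPM was close to saturation in GHA501A, where 23.2% and 22.2% of all member values lay between 1 and 10 TPM, compared with 14.9% and 13.2% in AG. Low values of this kind were also seen for Krt14: of 63 untreated GHA501A cells with higher fibroblast markers, 61.9% were over 1 TPM and 20.6% over 10 TPM, and of 57 such treated cells 89.5% and 40.4%. The part of such low values in the shares was not tested.

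At a limit of 10 TPM the shares were 31.8% (20.9 to 44.4) and 34.4% (22.9 to 47.3) in AG and 56.3% (44 to 68.1) and 52.2% (39.8 to 64.4) in GHA501A. The median cell had 10 and 11 members over 10 TPM in AG and 22 and 19 in GHA501A. In AG the number of members over 10 TPM ran from 2 to 33 in untreated and from 3 to 33 in treated cells. Of these cells, 29 of 66 untreated and 29 of 64 treated had 8 or fewer. In GHA501A 10 and 14 cells had so few.

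**Figure D2:**
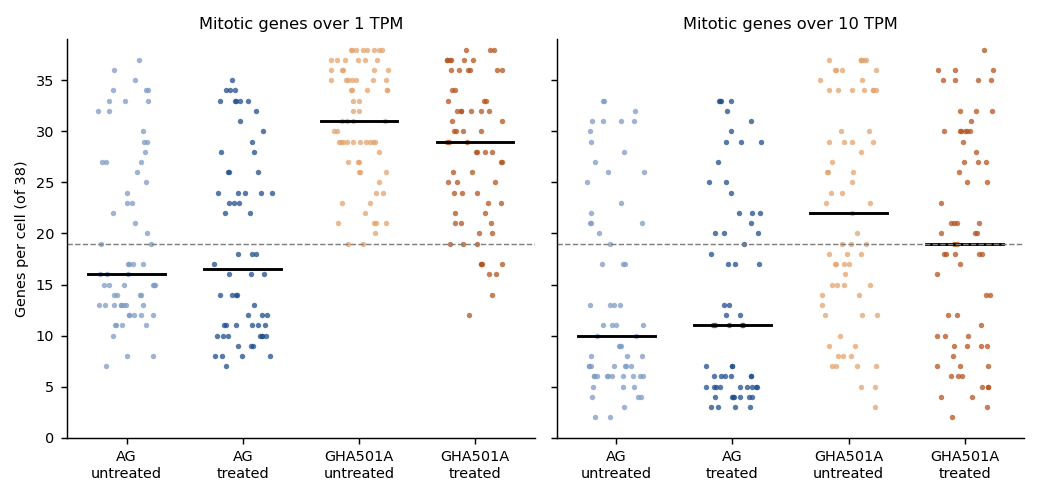
Number of the 38 mitotic genes over 1 TPM (left) and over 10 TPM (right) in each cell (points) of the 4 library sets; black bars are medians and the dashed line is 19 genes. At 1 TPM all untreated GHA501A cells lie on or above the line, whereas at 10 TPM the set medians are 10, 11, 22 and 19.

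A stricter core was 6 genes that peak late in the cycle, Ccnb1, Ccnb2, Plk1, Cdc20, Aurka and Ube2c, all over 1 TPM in the same cell. The core was found in 22.7% (13.3 to 34.7) of untreated and 20.3% (11.3 to 32.2) of treated AG cells. In GHA501A it was found in 45.1% (33.2 to 57.3) of untreated and 26.1% (16.3 to 38.1) of treated cells. With all 6 genes over 10 TPM the shares were 15.2%, 15.6%, 31% and 11.6%.

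**Figure D3:**
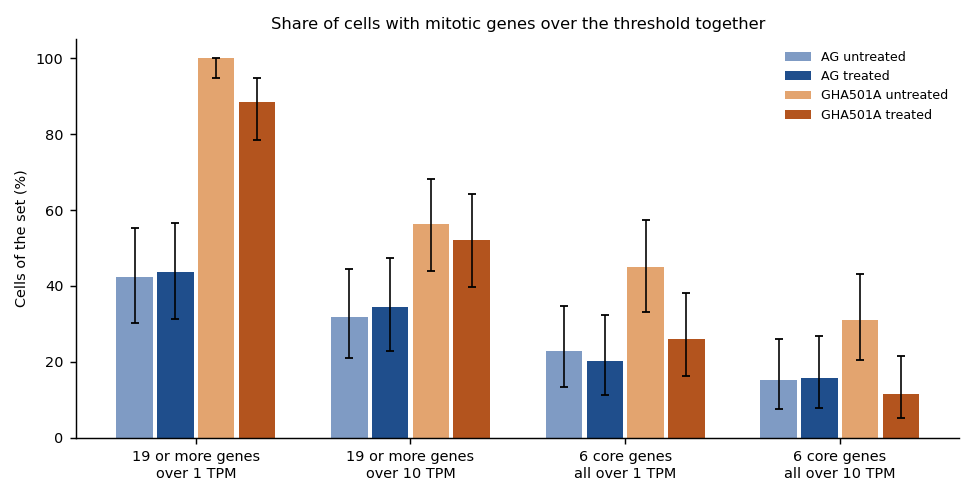
Share of cells (percent of each library set) with 19 or more mitotic genes, or with all 6 core genes, over 1 or 10 TPM; error bars are exact 95% binomial intervals and cover counting error only. GHA501A bars stand above AG bars for the broad rule, and for the core at 10 TPM the treated GHA501A bar, at 11.6%, is the lowest of the 4.

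The series difference of the broad share was 57.6 percentage points in untreated and 44.7 in treated sets, with a mean of 51.1 ± 9.14 (SD, n = 2 pairs). At 10 TPM it was 24.5 and 17.8 points. For the core at 1 TPM it was 22.3 and 5.77 points. Both pairs went the same way in these 3 cases, but for the core at 10 TPM the difference was 15.8 points in untreated and -4.03 in treated sets. In this design 2 pairs cannot give a two-sided exact sign-flip p below 0.5.

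Within cells of a kind, the comparison of series could be made only for cells with higher keratinocyte markers, of which GHA501A had 20. At 10 TPM, 32.6% of such AG cells (24.6 to 41.4) and 10 of 20 such GHA501A cells (50%; 27.2 to 72.8) had 19 or more members. Of the 120 GHA501A cells with higher fibroblast markers, 66 (55%; 45.7 to 64.1) had 19 or more. At 1 TPM the keratinocyte-marker cells gave 42.6% (34 to 51.6) in AG and 95% (75.1 to 99.9) in GHA501A. The intervals cover counting error within these sets and do not test the series. The median number of genes over 1 TPM per cell was 6191, 6381, 6392 and 6008 in the 4 sets. It was thus highest in untreated and lowest in treated GHA501A. Within the sets, the members' mean log2(TPM + 1) had a Spearman's rho of 0.28, 0.26, 0.37 and 0.45 with genes per cell. The part of genes per cell in the shares and in their treatment differences was not tested. Within each set, positive cells by the 10 TPM rule had more genes than the others, for example a median of 6503 against 6001 in untreated AG.

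With 19 or more members required, the treatment difference of the broad share had opposite signs in the 2 series. That of the core had the same sign at 1 TPM but not at 10 TPM. For the broad share, treated minus untreated was 1.33 points in AG and -11.6 points in GHA501A (mean -5.13 ± 9.14, SD, n = 2 pairs). At 10 TPM it was 2.56 and -4.16 points. For the core at 1 TPM it was -2.41 and -19.0 points, with a mean of -10.7 ± 11.7, and both series had the lower value in the treated set. At 10 TPM the core gave 0.473 and -19.4 points. With 29 or more members over 1 TPM required in place of 19, the broad share was lower in both treated sets, with differences of -0.90 and -21.1 points. With 10 or more required, it was -7.95 points in AG and 0 in GHA501A, where every cell of both sets met the rule. The exact sign-flip p for the core at 1 TPM was 0.5, the smallest that 2 pairs can give, so this test cannot show a treatment effect on the shares.

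Gene by gene, both factors were tested by limma, with series and treatment as terms, over 12355 genes. The values were the log2 of each set's mean TPM plus 1. A gene was called when its Benjamini-Hochberg adjusted p was under 0.05 and its log2 fold change over 0.5 in size. This fit left 1 residual degree of freedom, so its SE and p rest largely on a variance that limma pools over genes. They do not measure the spread between repeated preparations of a series, since each series held 1 set per treatment. Between series, 3580 genes (29%) were called, 18.2% of the 12355 higher and 10.8% lower in GHA501A. Of the 38 mitotic genes, 8 (21.1%) were called and all 8 were higher in GHA501A, a share close to the 18.2% of all genes. Ckap5 and Ect2, however, passed the filter on low values through GHA501A alone. Among genes over 1 TPM in more than 5 cells of each series, 6 of 36 members (16.7%) and 13.9% of 9879 genes were called higher in GHA501A. The 8 called members were Racgap1 (log2 fold change 5.67 ± 0.33, SE; limma adjusted p = 0.0018), Ckap5 (5.08 ± 0.36), Nusap1 (4.37 ± 0.37), Ect2 (3.76 ± 0.34), Cdc25b (3.45 ± 0.45), Ttk (3.37 ± 0.33), Birc5 (3.32 ± 0.33) and Ube2c (1.31 ± 0.33; limma adjusted p = 0.046). The first 4 are the genes that never exceeded 5 TPM in AG, so their fold changes depend on the pseudocount: with 0.1 in place of 1 TPM, Racgap1 had 7.66 and Ect2 6.71. Of all 2247 genes called higher in GHA501A, 32% had no AG cell over 5 TPM. Leaving out a set left too few sets for both terms, so these fits also dropped treatment. Without the untreated or the treated AG set, 2 members stayed called (Birc5 and Racgap1) and the genes called fell to 1023 and 1266. Without the untreated or the treated GHA501A set, 7 members and 2229 and 2198 genes were called. Ube2c was not called with the smaller pseudocount, without the filter on low values or without treatment as a term, with limma adjusted p of 0.089, 0.060 and 0.067.

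Across the whole list, 35 members had a positive and 3 a negative difference, and the median was 0.83, compared with 0.01 over all genes. The 3 negative values belonged to Anln (-0.27), Cenpf (-0.18) and Hmmr (-0.12), none of which was called. By role, the median was 1.02 for the spindle checkpoint and passenger complex, 0.96 for cytokinesis, 0.93 for the anaphase-promoting complex pair, 0.77 for entry kinases and cyclins, 0.59 for chromosome proteins, 0.54 for spindle proteins and 0.44 for the kinetochore. This order held on mean TPM only: with the log averaged over cells, the kinetochore had the highest median of the roles, at 1.64, and cytokinesis was at 1.07. Top2a (1.16 ± 0.35), Cdk1 (1.39 ± 0.43) and Mki67 (0.93 ± 0.33) had limma adjusted p of 0.075, 0.075 and 0.11 and were not called.

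The call depended on how cells were averaged. When log2(TPM + 1) was averaged over cells, which weights the number of expressing cells more than the height of the few highest, 29 of 38 members were called, against 44.8% of all genes. Of these, 27 (71.1%) were higher in GHA501A, against 21.4% of all genes, and 2 were lower. The 2 lower members were Cenpf (-1.25 ± 0.19) and Hmmr (-1.01 ± 0.19). On this scale the median of the members was 1.57 and that of all genes was -0.11. Ccnb2 went from 0.40 ± 0.33, not called, on the mean TPM scale to 3.0 ± 0.25 on the averaged log scale (limma adjusted p = 0.0013). Its median TPM was 15.3 and 7.97 in the AG sets and 442 and 348 in the GHA501A sets.

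**Figure D4:**
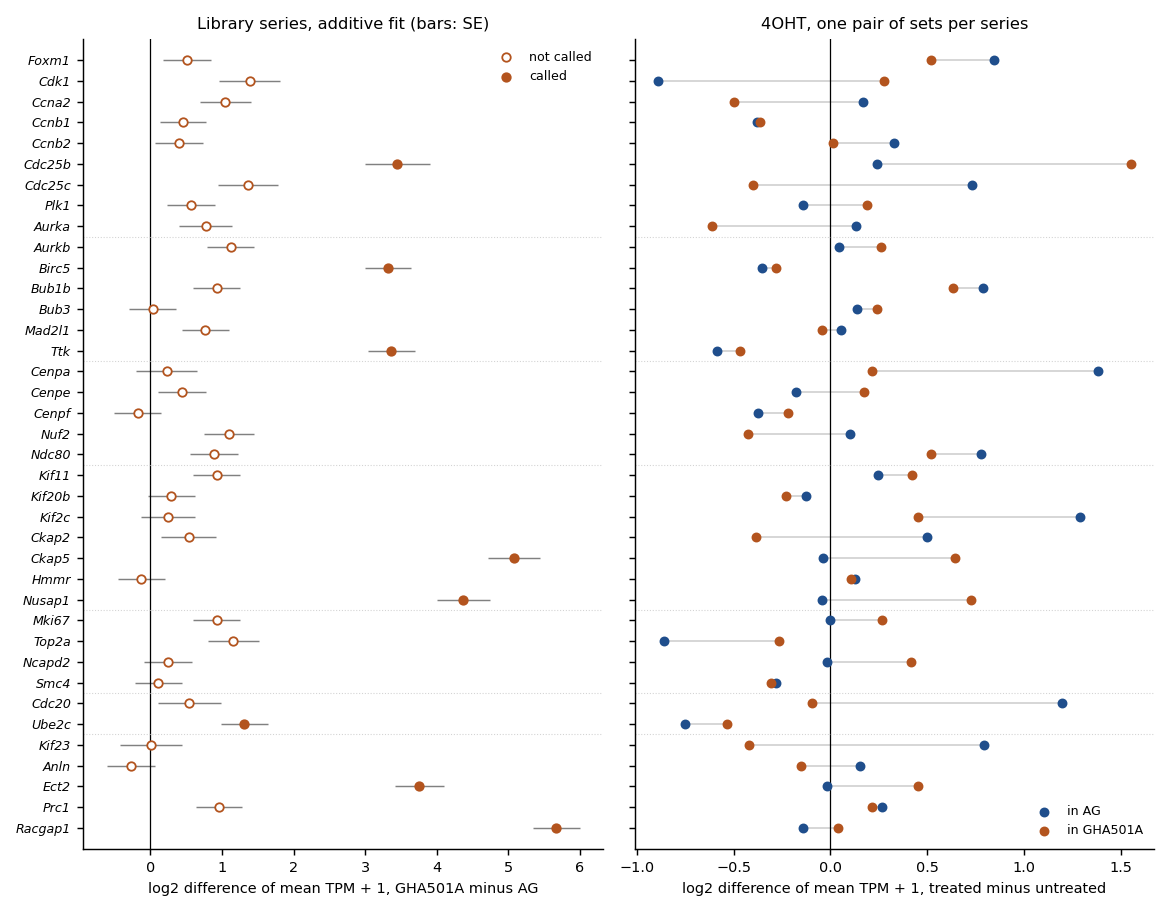
Left: log2 difference of mean TPM + 1 for each mitotic gene, GHA501A minus AG, from the additive limma fit over 4 library sets (bars, SE; filled points, called). Right: treated minus untreated in AG (blue) and in GHA501A (orange), 1 pair of sets each; the left panel holds 35 positive values of 38, while on the right 18 genes have opposite signs in the 2 series.

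Treatment with 4OHT gave no call for any mitotic gene, nor for any of the 12355 genes (0%) by limma, where 459 genes had an unadjusted p under 0.05, none of them a member. Member log2 fold changes ran from -0.64 ± 0.33 (Ube2c) to 0.90 ± 0.45 (Cdc25b), and the lowest limma adjusted p was 0.998. Their median was 0.13 with 24 positive values, but on the averaged log scale it was -0.10 with 8 positive values, and 16 of the 38 signs turned. On that scale no gene was called either, and 393 genes had an unadjusted p under 0.05, 5 of them members, which were named after their values were seen. All 5 had negative values: Kif20b (-0.87 ± 0.27), Birc5 (-0.82 ± 0.22), Aurka (-0.77 ± 0.20), Ube2c (-0.75 ± 0.19) and Top2a (-0.71 ± 0.19), each with a limma adjusted p of 0.9998. On the mean TPM scale the same 5 genes had -0.18, -0.32, -0.24, -0.64 and -0.56. In the separate series, 12 members were higher with treatment in both, 8 were lower in both and 18 had opposite signs. The members higher or lower in both were 31.6% and 21.1%, beside 23.5% and 23.8% of all genes. Those higher in both on mean TPM included Foxm1 (0.84 in AG and 0.52 in GHA501A), Bub1b (0.79 and 0.64) and Ndc80 (0.78 and 0.52). Those lower in both included Ube2c (-0.75 and -0.53), Ttk (-0.58 and -0.47) and Ccnb1 (-0.38 and -0.37). Cdc20 had the widest positive value in AG after Cenpa and Kif2c, at 1.196, and a value of -0.10 in GHA501A. With standard errors of 0.33 to 0.45 on the log2 scale, a missing call does not show that these genes did not change.

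The members followed each other closely from cell to cell. For each gene, Spearman's rho was taken between its level and the mean log2 level of the other members, across the cells of a set. These are descriptions over 64 to 71 cells that share a library set and a fixed TPM total. The mean over the 4 sets had a median of 0.67 over members and was over 0.5 for 33 of 38. Cenpe (0.77), Mki67, Ndc80 and Ccnb1 (each 0.76) and Cenpf (0.75) stood at the top. Bub3 (0.28) was at the bottom, with Cdc25b (0.40), Racgap1 (0.41) and Ckap5 (0.42) above it.

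Some members followed the list in only part of the sets. Birc5 had rho of 0.46 and 0.35 in the AG sets and of 0.86 and 0.80 in the GHA501A sets, where it was the closest follower of all members in untreated cells. Racgap1 had 0.23 and 0.05 in AG and 0.70 and 0.65 in GHA501A, and its AG values are mostly 0. Hmmr and Cenpf, which were detected in nearly every AG cell, still followed the list there, with 0.66 and 0.70 for Hmmr and 0.62 and 0.80 for Cenpf. Their level in AG thus varied with the list although their presence did not.

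**Figure D5:**
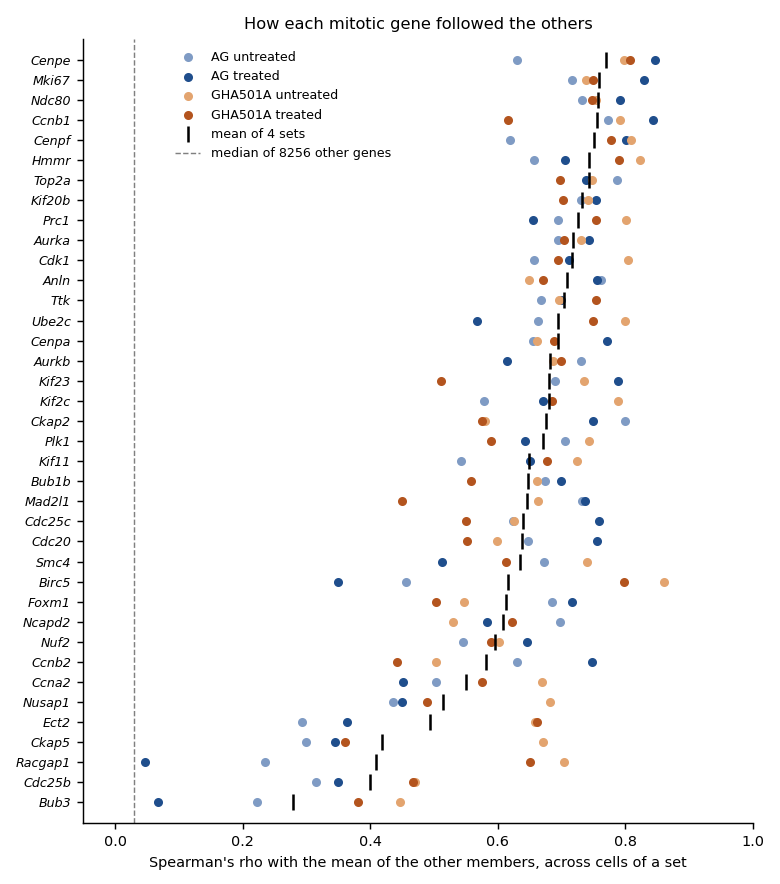
Spearman's rho between each mitotic gene and the mean of the others across the cells of each library set (coloured points), with the mean of the 4 sets (black ticks); the dashed line is the median of 8256 other genes, 0.03. Means run from 0.28 for Bub3 to 0.77 for Cenpe, and Birc5 and Racgap1 have GHA501A points far to the right of their AG points.

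Pairs of members were counted in the same cells at a limit of 10 TPM. Over all 4 sets, Top2a was over the limit in 61.5% of cells, Plk1 in 37% and both in 31.5%. The share of Plk1 cells that had Top2a was 85.7%, 78.9%, 91.4% and 80%, beside 42.4%, 42.2%, 81.7% and 76.8% of all cells of those sets. The Plk1 cells thus lay far above all cells in AG and close to them in GHA501A. Mki67 was over the limit in 53.7% of cells, Cdc20 in 37.8% and both in 33.3%. Nuf2 and Ndc80, subunits of the same complex, were over it in 41.9% and 43.3%, and both in 30.7%. Aurkb and Birc5, also partners in a complex, were over it in 35.2% and 58.1%, and both in 29.6%.

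Outside the list, the genes whose cell-to-cell pattern was most like the mean of the members, among 8256 genes detected in at least 10% of the cells of each set, were Shcbp1 and Cdca8 (mean rho 0.77 each), Smc2 (0.76), Ckap2l and Spag5 (0.74 each), Pimreg (0.73), Kif22 and Knl1 (0.72 each), and Pbk and Hmgb2 (0.71 each). Cdca8 (borealin) is the passenger complex partner of Birc5 and Aurkb, Smc2 is the condensin partner of Smc4, and Knl1 is a kinetochore scaffold. The median over the 8256 genes was 0.03. The most opposite genes were Gabarap (-0.40), Selenow and Atp6v0e (-0.34 each), Agbl5 (-0.32) and Atp6v1e1 (-0.30). Gabarap acts in autophagosome formation, and Atp6v0e and Atp6v1e1 are subunits of the vacuolar proton pump.

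Other gene lists of the pathway placed the members in context. Of 41 other mitotic genes, none was called for treatment and 10 were called higher in GHA501A, with a median log2 difference of 0.78, where 18.2% of all genes were higher. With the log averaged over cells, 29 were called higher and 2 lower. Gtse1, Cdca2, Spc25 and Ska1, called higher on both scales, passed the filter on low values through GHA501A alone. Kif20a, a cytokinesis motor, had means of 0.174 and 0.357 TPM in AG and of 128.3 and 120.4 TPM in GHA501A. Pttg1 (securin), which guards the cohesin-cutting enzyme, had means of 2.64 and 4.17 TPM in AG and of 129.96 and 128.5 TPM in GHA501A. Genes such as Rps24 were also near 0 in AG, so the low AG values of Kif20a and Pttg1 do not show low expression there. Cks2, a Cdk1-binding protein and the most abundant of that list, was not called, at 379, 464, 621 and 513 TPM. The median rho of this list with the members' mean was 0.61 over 36 genes.

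The anaphase-promoting complex subunits and their regulators mostly lacked this cell-to-cell pattern, with a median rho of 0.09 over 16 genes. The exceptions were Fbxo5 (0.51), an inhibitor of the complex, and Cdc23 (0.49), a subunit, which lay above the members at the bottom of the list such as Ckap5. Of 17 tested, 3 rose in GHA501A: Anapc11 (2.91 ± 0.33), Ube2s (2.11 ± 0.41) and Anapc5 (4.52 ± 0.35), while Anapc2, the cullin-like subunit, was not called (-0.54 ± 0.34). Of 11 inhibitors of mitotic entry and phosphatases, 2 rose and 1 fell. Pkmyt1, which inhibits Cdk1, rose (2.26 ± 0.34), as did Arpp19 (5.23 ± 0.33), an inhibitor of a mitotic phosphatase, and Ppp1cb, a phosphatase subunit, fell (-2.65 ± 0.34). Of 13 DREAM, MuvB and NF-Y genes, 3 rose: Nfyc (3.78 ± 0.33) and Nfya (1.80 ± 0.36), subunits of the factor that binds CCAAT, and Lin9 (1.44 ± 0.33), a MuvB subunit. Anapc5, Arpp19, Nfyc and Nfya never exceeded 5 TPM in any AG cell, like the 4 members named above, so their fold changes too depend on the pseudocount. Anapc5, Arpp19 and Nfya also passed the filter on low values through GHA501A alone, so that filter already favoured a higher value there. All of these fold changes are from the limma fit on mean TPM, where 18.2% of all genes were higher and 10.8% lower. With the log averaged over cells, 21.4% of all genes were higher and 23.4% lower. The counts were then 7 higher and 1 lower for the complex, 3 and 2 for the inhibitors and phosphatases, and 3 and 1 for the DREAM, MuvB and NF-Y genes. These were not all the same genes. Pkmyt1 (0.69, limma adjusted p = 0.060) and Lin9 (0.52, limma adjusted p = 0.092) were no longer called, and Mastl, Chek1 and Rbl1 were called higher.

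DNA replication genes act earlier in the same cycle. Of 30 tested, 7 rose in GHA501A and none fell, with a median of 1.14, beside 18.2% and 10.8% of all genes, and none was called for treatment. With the log averaged over cells, 24 were higher and 1 lower. Ccne2, called higher on both scales, passed the filter on low values through GHA501A alone. Rrm2, the ribonucleotide reductase subunit of S phase, had means of 258, 277, 793 and 687 TPM (1.46 ± 0.33), while Pcna, the replication clamp, was not called, at 233, 164.5, 168.1 and 199 TPM. Counting cells with 19 or more mitotic genes, and cells with 15 or more of the 30 replication genes, over 10 TPM, 87 of 270 cells met both rules, 32 met the mitotic rule alone, 36 the replication rule alone and 42.6% neither. Cells that met both made up 19.7% and 21.9% of the AG sets and 46.5% and 39.1% of the GHA501A sets. Of 15 genes that act before S phase, cyclins and inhibitors, 5 rose in GHA501A, and with the log averaged over cells 7 were higher and 2 lower. The largest was Cdk6, a kinase of the start of the cycle, with means of 20.5 and 15.1 TPM in AG and of 3858 and 3206 TPM in GHA501A. Cdkn1a (p21), an inhibitor of cell cycle kinases, rose as well (3.74 ± 0.34). Ccnd3, also among the 5, passed the filter on low values through GHA501A alone.

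Markers of further cell types were summed as well. Of 6 endothelial markers only 2 had a row and neither was tested. They summed to at most 0.448 TPM in any set, and the 4 others were not analysed here. Lyz2, the abundant gene among the leukocyte markers, brought their sum to 151, 98.3, 388 and 1079 TPM, and it was 1 of only 2 leukocyte markers with a row. Lyz2 was called higher in GHA501A (2.42 ± 0.58; limma adjusted p = 0.041). Genes of differentiating keratinocytes summed to 230, 277, 64.2 and 284 TPM and none of 5 tested was called on mean TPM, but Sprr1b and Ivl were called lower in GHA501A with the log averaged over cells. Melanocyte markers summed to 76.3, 50.1, 17.0 and 34.8 TPM, with Tyr the most abundant, and neither of the 2 tested was called on mean TPM. With the log averaged over cells, both Tyr (-1.77) and Pmel (-1.66) were called lower in GHA501A. The part of these cells in the mitotic values was not tested.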

How the data were processed

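Single cells captured on a C1 microfluidic chip were sequenced as 100-bp paired-end SMART-Seq v4 libraries. Per the study's methods, the authors cleaned reads with FastQC and cutadapt, aligned them to GRCm38 with TopHat without multiply mapped reads, counted genes with featureCounts and deposited TPM values. These sum to 1e+06 per cell, so depth is not known from them, and discarding multiply mapped reads can lower genes with near copies. Of the deposited columns, 16 without a label were not used, and doublets had been removed by imaging.

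Mean TPM per library set was log2-transformed with a pseudocount of 1. Genes over 1 TPM in more than 5 cells were tested with limma 3.58.1 (R 4.3.3), with treatment and series as terms and series as the replicate block, and checked on simulated data. Fits without the replicate block, or without 1 set, held only the factor tested. Cells were never used as replicates. No label ties single cells or chips across treatments, so pairing rests on the series name. A cell had higher keratinocyte markers when the mean log2(TPM + 1) of those markers exceeded that of the fibroblast markers. Intervals of shares are Clopper-Pearson. Sequences and motifs came from RefSeq promoters.

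The members, the other gene lists and the tests were chosen with earlier results of these data known. The text names the members, up to 6 genes of each other list by mean level or call, and the 10 genes most and 5 least like the members' mean. Pairs of members and the examples of genes absent from AG were chosen after their values were seen. The alternatives tried are given in the closing section.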

Additional observations from a re-analysis of the deposited data

Results flagged for a closer look

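The treatment difference of the mitotic shares had opposite signs in the 2 series under the counting rules given first, and the difference between series was not tested, since each series held 1 set per treatment. For cells with 19 or more members over 1 TPM, treated minus untreated was 1.33 percentage points in AG and -11.6 in GHA501A. At 10 TPM these values were 2.56 and -4.16 points. For the 6 core genes all over 10 TPM they were 0.473 and -19.4 points. Under some other rules the signs were the same. These were -2.41 and -19.0 points for the core over 1 TPM and -3.93 and -20.2 for the core over 0 TPM. They were also -0.90 and -21.1 with 29 or more members over 1 TPM. With 19 or more, they were -1.45 and -11.6 when the 8 cells of conflicting labels were placed by treatment label. Placed by name prefix, these cells gave opposite signs, 3.93 and -11.6. The broad share at 1 TPM also had opposite signs in cells with at least 5000 genes (1.98 and -10.4). The same held without the 4 members at most 5 TPM in AG (1.52 and -10.2) and in cells with higher keratinocyte markers (0.433 and -8.33). With 10 or more members over 1 TPM required, the broad share gave -7.95 points in AG and 0 in GHA501A, where every cell met the rule. In AG the core share at 10 TPM was 10 of 66 untreated and 10 of 64 treated cells, and in GHA501A it was 22 of 71 and 8 of 69. Of the GHA501A cells, 8 of 71 untreated and 12 of 69 treated had higher keratinocyte markers, and among the 120 with higher fibroblast markers the share was 17 of 63 untreated and 8 of 57 treated.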

How the results depend on the processing

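No treatment call appeared for any gene or member under any alternative run, with or without the replicate block. Without the replicate block each factor was fitted alone, which called 0 genes for treatment (53 with an unadjusted p under 0.05) and, between series, 3853 genes and 9 members. Averaging log2(TPM + 1) over cells gave 5539 genes and 29 members between series. On mean TPM, leaving out the 4 members at most 5 TPM in AG left 4 called members. Of all genes called higher in GHA501A on that scale, 32% were at most 5 TPM in AG. Counting only genes over 1 TPM in more than 5 cells of each series, a choice made after seeing the data, gave 2348 genes and 6 members. Leaving out each set gave 1023 to 2229 genes and 2 to 7 members, with the other factor dropped, since 3 sets cannot carry both, and the lone set of a group assumed to vary like the others. The series difference of the broad share was 21.2 points at 10 TPM, 8.52 with 10 members and 40.5 with 29 members required, all positive. In cells with higher keratinocyte markers, a choice made after seeing the data, the treatment difference of the core share was -3.68 points in AG and -45.8 in GHA501A, the latter from 8 and 12 cells, with a mean of -24.8.

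With log2(TPM + 1) averaged over cells, 2 of 38 signs turned between series, Bub3 (-0.30) and Anln (1.07), and 16 of 38 for treatment, among them Cenpa (-0.27), Bub1b (-0.030), Ndc80 (-0.095) and Cdc20 (-0.17). Leaving out each set, the series difference ran from -0.090 to 0.15 for Bub3, -0.47 to 0.92 for Cenpa, -0.36 to 0.012 for Cenpf, -0.40 to 0.89 for Kif2c, -0.043 to 0.26 for Smc4, -0.052 to 1.14 for Cdc20 and -0.39 to 0.41 for Kif23. These fits left out the series term, so their treatment values hold part of the gap between series. Leaving out 1 set turned the treatment sign of 15 members (without untreated AG), 11 (treated AG), 9 (untreated GHA501A) or 12 (treated GHA501A) of 38. Of the members whose treatment values are given, the difference ran from -1.35 to 0.068 for Ube2c, -1.29 to 0.17 for Top2a, -2.24 to 1.19 for Ttk, -1.16 to 2.95 for Cdc25b, -0.047 to 1.15 for Cdc20, -0.81 to 0.33 for Aurka and -1.99 to 1.36 for Birc5. On mean TPM over all 4 sets none of these was called, apart from Ube2c, Ttk, Cdc25b and Birc5 between series, whose sign between series held. With series kept as a term, leaving out a set gives the treatment difference of the other series alone, such as -0.75 or -0.53 for Ube2c and -0.58 or -0.47 for Ttk. Why the averaged log turned signs was not tested. Depth per cell is not known, and 2 sets per treatment limit every treatment result.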

Other observations

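The 8 AG cells whose name and treatment label disagreed belong to no comparison. Of the 5 with an AG1neg name and a treated label, none had 19 or more members over 10 TPM, and the number of members over 10 TPM ran from 5 to 15 with a median of 6. Of the 3 with an AG2pos name and an untreated label, 2 had 19 or more, and the number ran from 5 to 31 with a median of 23.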
